A study of Homo sapiens with 12 samples.

Results

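Peaks inside gene bodies are stretches of RNA called as enriched in 7-methylguanosine (m7G) immunoprecipitates that lie in the body of 1 protein-coding gene, away from both of its ends. A peak was taken when it overlapped exactly 1 protein-coding RefSeq gene body of GRCh38, readthrough genes aside, and when its midpoint lay between 10% and 90% of that body, counted from the 5′ end on the strand given for the peak. Of 9958 peaks, 3499 (35.1%) met this rule, in 2153 genes. The others were 3029 peaks at the 5′ end of a gene, 2636 at the 3′ end, 613 over several coding genes and 181 over none.

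The libraries came from THP-1, an established human monocytic leukemia line that turns adherent and macrophage-like when given the phorbol ester PMA. Cells of every group received PMA at 100 ng/ml for 48 h, and mRNA was taken on oligo(dT) beads. The control is called NC and the knockdown, made with a short hairpin against METTL1, is called KD. Each was measured as IP, the m7G immunoprecipitate, and as IN, taken here as its input, with 3 libraries in each of the 4 groups. The sources used here do not say what the control cells carried, how many hairpins were used or whether the cells were 1 clone. Nothing in the labels says that replicates were separate cultures, so p-values measure the spread between these libraries, which may be technical.

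Over all peaks, the 6 IN libraries held 907024 to 1105477 reads each and the 6 IP libraries 1476384 to 1888972. No peak overlapped METTL1, so the targeted gene was not measured here. Of 36 macrophage and monocyte markers 18 had a peak, and their summed level was 2530 to 2987 CPM (reads scaled with TMM to a common library total) in the NC inputs and 5382 to 5828 CPM in the KD inputs. Of 20 pan-leukocyte markers 8 had a peak, at 1453 to 1654 CPM in the NC inputs and 3899 to 4060 CPM in the KD inputs. Of 30 genes associated with the embryonic kidney line HEK293 21 had a peak, at 12743 to 13660 CPM in the NC inputs and 3311 to 3403 CPM in the KD inputs, with HOXD13 and LIN28B at 0 reads in the KD inputs. Of 12 epithelial markers 3 had a peak, at 492 to 534 CPM in the NC inputs and 21.4 to 24.1 CPM in the KD inputs, and of 11 fibroblast markers 6 had one, at 32 to 53.8 and 24.1 to 35.4 CPM. None of 15 erythroid and lymphoid markers had a peak. By these sums the NC libraries carried leukocyte markers at a lower level than KD, beside a higher level of HEK293-associated and epithelial genes. Single genes did not all go this way. Of the 21 HEK293-associated genes 13 were lower and 3 higher in all KD inputs, and of the 3 epithelial genes 2 were lower and 1 higher. Of the 18 macrophage and monocyte markers 12 were higher and 0 lower, and of the 8 pan-leukocyte markers 5 and 0. In these markers the libraries labelled NC go against what is known of a monocytic line, and whether they hold RNA of another line was not tested. Every value of KD over NC below, and every change in enrichment between them, is therefore a comparison of the libraries labelled KD and NC, and an effect of METTL1 cannot be told apart from this difference.

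The m7G cap is added to the 5′ end of every mRNA that RNA polymerase II makes, soon after transcription starts. It protects the RNA and is bound by the initiation factor eIF4E when translation begins. METTL1, with its partner WDR4, methylates guanosine inside tRNAs and has been reported to place internal m7G in mRNA and microRNA precursors. An antibody to m7G cannot tell a cap from an internal m7G. A gene can also start transcription at several places, so a capped 5′ end can lie inside the annotated body of a longer transcript.

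Start sites listed by RefSeq inside the gene body were therefore looked up. A peak was placed at such a start when it came within 100 bases of it and the start itself lay past the first 10% of the body. Of the 3499 peaks, 229 (6.54%) were at a start inside the body, 21 at a start in the first 10% and 2540 (72.6%) away from the starts listed. A further 709 (20.3%) were in genes with no start listed on the strand of the peak, since the table of starts is not complete. The sequences below surround 6 internal starts whose peak was higher in IP than in IN in both cell groups. They are from RefSeq, build GRCh38.p14, and run 5′ to 3′, with lower case for the 70 bases before the start and capitals for the 30 bases from the start onward.
SPRED3: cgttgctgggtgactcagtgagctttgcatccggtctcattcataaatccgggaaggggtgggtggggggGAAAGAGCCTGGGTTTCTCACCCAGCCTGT
TMUB1: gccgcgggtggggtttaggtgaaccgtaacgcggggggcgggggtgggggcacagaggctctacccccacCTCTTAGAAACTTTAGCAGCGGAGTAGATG
LMO4: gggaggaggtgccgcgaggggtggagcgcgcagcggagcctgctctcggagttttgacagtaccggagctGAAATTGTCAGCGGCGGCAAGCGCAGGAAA
RUNX2: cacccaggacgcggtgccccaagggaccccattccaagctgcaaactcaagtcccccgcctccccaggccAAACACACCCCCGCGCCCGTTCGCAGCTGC
ASPDH: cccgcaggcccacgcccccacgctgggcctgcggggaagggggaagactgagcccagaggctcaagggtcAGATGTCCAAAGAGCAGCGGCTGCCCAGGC
LARP4B: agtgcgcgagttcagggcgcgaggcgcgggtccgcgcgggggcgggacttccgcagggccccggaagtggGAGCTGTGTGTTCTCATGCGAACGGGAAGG
These windows are chr19:38389721-38389820 on the plus strand for SPRED3, chr7:151082990-151083089 on the minus strand for TMUB1 and chr1:87331674-87331773 on the plus strand for LMO4. RUNX2 is chr6:45422205-45422304 on the plus strand, ASPDH is chr19:50513884-50513983 on the minus strand and LARP4B is chr10:931676-931775 on the minus strand. The starts lay at 10% of the gene body in SPRED3, 19.7% in TMUB1, 14.3% in LMO4, 42.2% in RUNX2, 34% in ASPDH and 31.2% in LARP4B.

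For contrast, 3 internal starts are shown whose peak was lower in IP than in IN in both cell groups, in the same layout.
CARD8: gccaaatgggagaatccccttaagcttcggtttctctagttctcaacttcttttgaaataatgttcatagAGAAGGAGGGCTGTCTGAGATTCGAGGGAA
CD63: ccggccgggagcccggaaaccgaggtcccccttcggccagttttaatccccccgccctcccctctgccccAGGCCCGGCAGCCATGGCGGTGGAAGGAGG
UBE2D3: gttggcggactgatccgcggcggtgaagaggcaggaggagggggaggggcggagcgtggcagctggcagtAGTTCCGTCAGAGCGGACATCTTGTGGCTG
These are chr19:48249604-48249703 for CARD8, chr12:55728325-55728424 for CD63 and chr4:102827522-102827621 for UBE2D3, on the minus strand in each. The GC content of the 100 bases was 43% in CARD8, 73% in CD63 and 67% in UBE2D3, against 58% to 72% in the 6 windows above. In windows of 300 bases around the start, searched on both strands, the GC box letters GGGCGG were found in TMUB1, LMO4, RUNX2, LARP4B, CD63 and UBE2D3, so in windows of both kinds. Of the 105 internal starts with a tested peak, 79% held GGGCGG against 44.9% of all 34943 listed starts, and 2.86% held TATAAA against 11.6%. CCAAT stood in 31.4% against 34.6%, and CCGGAAG in 20% against 10.2%. Their median GC content was 67.7% against 58.7%. The 105 starts have a region that passed the filter on low counts, while the 34943 were taken without regard to reads. Tested starts at the 5′ end were not set beside them, so whether these shares are particular to internal starts was not tested. GGGCGG was present in 84% of the 25 starts with a peak higher in IP in both groups and in 70% of the 10 with a peak lower in both. A match is a description of the letters and not a binding site.

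Peaks inside gene bodies had a median length of 182 bases (quartiles 120 and 332). Their genes had a median length of 20.7 kb (9.06 to 49), against 29.8 kb for peaks at the 5′ end and 47.9 kb for those at the 3′ end. They were not spread evenly: in steps of 10% of the body, from 10% to 90%, they numbered 390, 279, 302, 321, 339, 429, 562 and 877, so the last step alone had 25.1% of them. One peak was found in 1329 genes, and 58 genes had 5 or more. Peaks had been called separately for the KD and the NC groups, 1818 and 1681 of these, and 37% (95% Wilson interval 35.4 to 38.6) shared at least 1 base with a call of the opposite set. The same share was 50.5% (48.8 to 52.3) at the 5′ end and 29.2% (27.5 to 31) at the 3′ end. These intervals take peaks as independent, though a shared call makes its partner shared too, so they are too narrow. The median reads per peak went in the same order, at 86 inside the body, 182 at the 5′ end and 40 at the 3′ end. The part of read depth in the shared share was not tested. Merged where they overlap, the 3499 peaks cover 2803 separate stretches, so a stretch called in both sets enters the counts below more than once. Of 2846 peaks whose gene has a strand in the table of starts, 56 (1.97%) lay on the opposite strand.

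The first comparison asked which internal regions were richer in the immunoprecipitate than in the input. After the filter on low counts 1795 of the 3499 regions were tested, and 1704 were not. Values are log2 IP over IN with edgeR's TMM scaling. The libraries were scaled to reads in peaks, so 0 stands for the weighted, trimmed average that TMM takes over peak regions. It does not stand for the transcriptome or for the median region, and a region below it can still be a peak. In NC 301 internal regions were higher in IP (16.8%, against 22.7% of all 5113 tested regions) and 614 were lower (34.2% against 24%), at an edgeR adjusted p under 0.05. In KD 321 were higher (17.9% against 23.5%) and 515 lower (28.7% against 21.4%). The median was -0.22 in NC and -0.02 in KD for internal regions, against 0.13 and 0.23 for all regions. At the 5′ end the medians were 0.48 and 0.51, and at the 3′ end -0.08 and 0.05.

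How the calls divide into higher and lower depends on the scaling. When libraries were scaled by their totals in place of TMM, the median of all regions moved up to 0.42 in NC and 0.40 in KD, and the internal regions counted 435 higher and 416 lower in NC and 394 and 408 in KD. Relative to the median of all regions the internal median was -0.35 with TMM and -0.34 with library size alone in NC, and -0.25 with both in KD. Among the tested peaks in the upper 50% by the authors' fold these gaps were -0.16 and -0.01. In both cell groups 216 internal regions were called higher (12%, against 15.9% of all regions) and 456 lower (25.4% against 17.6%), while 6 were called in opposite directions. By ranks alone, in NC all 3 IP libraries were above all 3 inputs in 397 internal regions (22.1%, against 30.3% of all regions) and below them in 690 (38.4% against 27.5%). In KD this was so in 435 (24.2% against 32.1%) and 575 (32% against 24.4%).

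**Figure D1:**
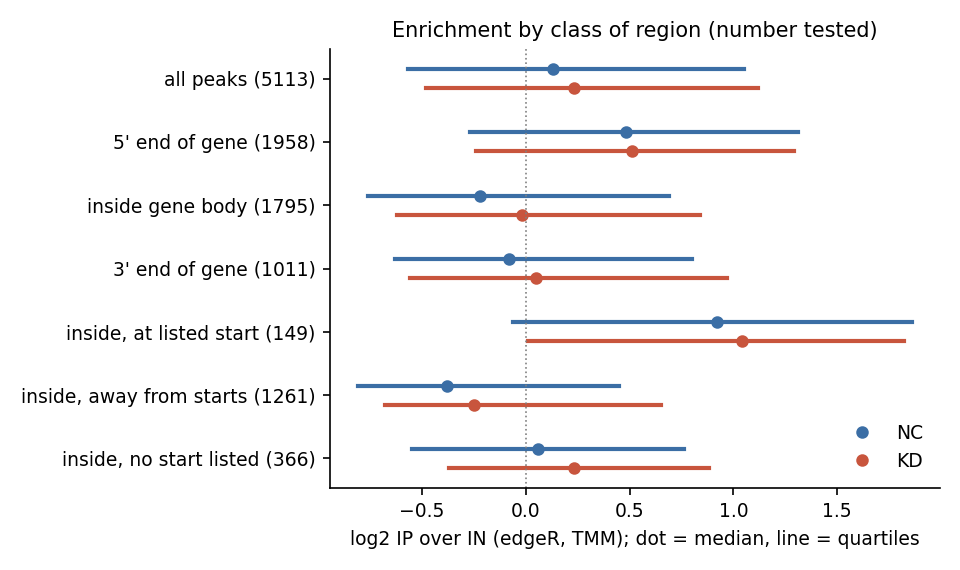
Median (dot) and quartiles (line) of log2 IP over IN by class of region, in NC and KD, with the number of tested regions in brackets. The value 0 is the weighted, trimmed average that TMM takes over peak regions. Internal regions had medians of -0.22 and -0.02, below the 0.48 and 0.51 of the 5′ end, while those at a listed start inside the body had 0.92 and 1.04.

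The read shares need no scaling. Internal peaks held 52.1%, 51.8% and 52% of the reads in peaks in the 3 NC inputs, and 44.8%, 45.5% and 45.9% in the 3 NC immunoprecipitates. In KD they held 52.1%, 52% and 52.7% in input and 45.7%, 45.1% and 44.1% in IP. Every IP library was below every IN library, and NC and KD overlapped within each kind of library. The means were 52% ± 0.153 and 45.4% ± 0.557 (SD, n = 3) in NC, and 52.3% ± 0.379 and 45% ± 0.808 in KD. Peaks at the 5′ end moved the other way, from 17.6% to 20.7% of reads in the inputs to 21% to 23.8% in the immunoprecipitates.

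**Figure D2:**
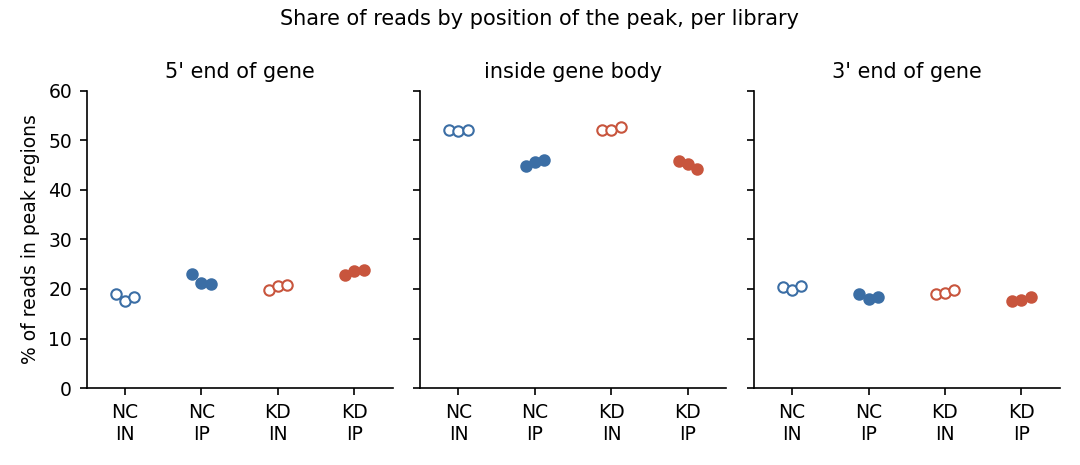
Percent of reads in peaks that fell at the 5′ end, inside the body and at the 3′ end of genes, 1 point per library, with open points for IN and filled points for IP. Inside the body all 6 IP libraries (44.1% to 45.9%) sit below all 6 IN libraries (51.8% to 52.7%).

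Internal regions at a listed start differed from those away from one. Of the 149 tested at a start inside the body, 57 were higher in IP in NC (38.3%) and 15 lower (10.1%), with a median of 0.92. In KD 60 were higher and 19 lower, with a median of 1.04. Of the 1261 tested away from listed starts, 166 were higher in NC (13.2%) and 511 lower (40.5%), with a median of -0.38, and in KD 168 were higher and 424 lower, with a median of -0.25. The 366 in genes with no start listed lay between, at 0.06 and 0.23. Regions at an inside start took 2.21% ± 0.146 of the internal reads in the NC inputs and 3.31% ± 0.218 in the NC immunoprecipitates (SD, n = 3), and 2.78% ± 0.115 and 3.51% ± 0.171 in KD. With library size alone the medians were 1.22 and 1.20 at inside starts and -0.09 and -0.08 away from them. Among 5′ end regions the same split showed little difference with TMM. Their medians were 0.51 in NC and 0.49 in KD at a listed start (1229 tested), and 0.40 and 0.50 away from one (353 tested). Median input was 93.6 and 91.7 CPM per kb in these 2 classes, but 76.8 at inside starts and 238 away from them. The part of input level in the internal difference was not tested.

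The median fell with the distance past a listed start. In NC it was 0.59 within 300 bases (132 regions), 0.36 up to 1000, 0.06 up to 3000, -0.28 up to 10000, -0.52 up to 30000 and -0.59 beyond (222 regions). In KD the same medians were 0.68, 0.51, 0.04, -0.23, -0.36 and -0.35. Over the same bins the median input was 108, 100, 147, 235, 303 and 304 CPM per kb, so it was higher in the later bins than in the first. Tested regions were therefore also set in 3 equal groups of input level, divided at 64.4 and 302 CPM per kb. In NC the medians at inside starts and away from starts were 1.84 and 1.06 at the lowest input, 0.36 and -0.06 at the middle input and -0.59 and -0.75 at the highest. In KD they were 1.82 and 1.18, 0.46 and 0.11, and -0.58 and -0.62. Internal and 5′ end regions were 1.26 and 1.29 in NC at the lowest input, 0.04 and 0.39 at the middle input and -0.70 and -0.45 at the highest. Input is the denominator of IP over IN, and a region of low input passes the filter on low counts mainly through its IP reads, so the order of these groups from high to low is set in part by how they were made. The part of input level in the fall with distance was not tested.

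**Figure D3:**
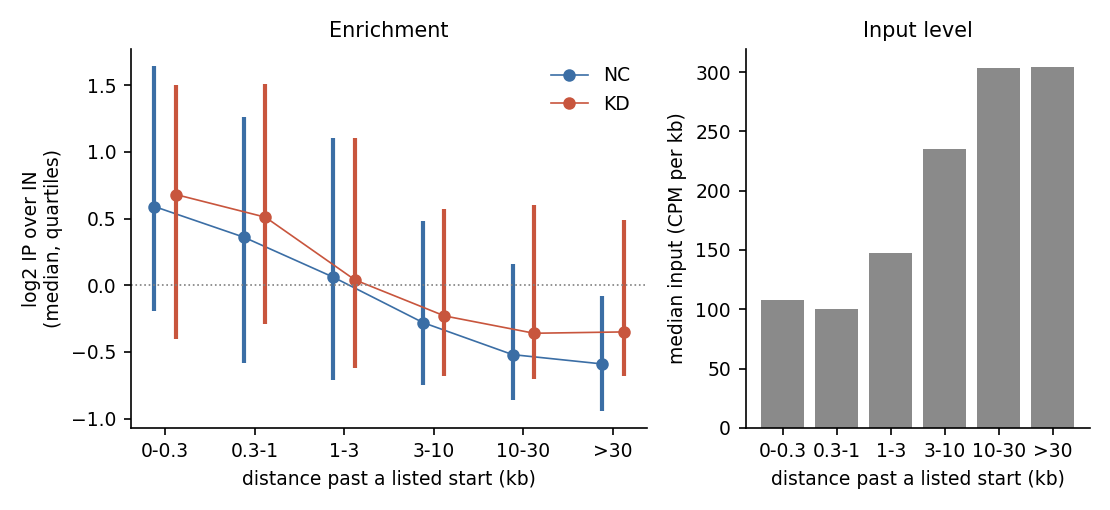
Left, median and quartiles of log2 IP over IN of tested internal regions by distance past a listed start, in NC and KD; right, their median input in CPM per kb, with bars from 0. The NC median falls from 0.59 to -0.59 and the KD median goes from 0.68 to -0.35, while the input is 108 and 100 CPM per kb in the first bins and 303 and 304 in the last.

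A comparison of regions within 1 gene does not depend on the scaling between libraries. In 160 genes both an internal region and a region at the 5′ end were tested, and of each kind the one with most reads was taken. IP over IN was lower in the internal region in 117 genes in NC (73.1%), with a median difference of -0.54, and in 114 genes in KD (71.2%), with -0.62. In NC the internal region was lower in 87 of the 104 genes where it had the higher input per kb (83.7%), and in 30 of the 56 where it had the lower input (53.6%). This split uses the denominator of the compared value, which pulls these shares apart by itself. HMG20B, a subunit of a histone demethylase complex, had -0.90 ± 0.18 (SE) in its internal region and 1.94 ± 0.25 at its 5′ end in NC, and -0.93 and 1.37 in KD. DCTN1, the large subunit of the motor adaptor dynactin, had -1.21 and 0.93 in NC and -0.84 and 0.91 in KD. In these genes both regions passed the test, in opposite directions; 12 genes did so in NC and 21 in KD, with 4 in the reverse order in each. Unlike the difference within a gene, such opposite calls depend on where the scaling puts 0. MGAT1, an enzyme of N-glycan synthesis, was one of the reverse cases, with 1.86 in its internal region and -0.76 at its 5′ end in NC and 1.74 and -0.52 in KD. Its internal region lay at 18.5% of the body, at a listed start. FERMT3, the integrin activator kindlin-3 of blood cells, had 0.82 and -0.75 in NC and 1.75 and -0.80 in KD, and KDM5C, a histone demethylase, had 0.97 and -0.49 in NC.

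The internal regions with the highest IP over IN in both cell groups belonged to genes of varied function. APOBR, a receptor for apolipoprotein B48 on macrophages, had its region at chr16:28495066-28495575, with 267, 287 and 337 CPM in the NC inputs and 2667, 3775 and 2734 CPM in the NC immunoprecipitates. In KD it had 442, 305 and 445 CPM in input and 5491, 3668 and 2689 CPM in IP. Every IP library was above every input, 10.3-fold in NC (log2 3.36 ± 0.20, edgeR adjusted p 3.4e-12) and 9.96-fold in KD (3.32 ± 0.20, 2.6e-12). The peak was given on the minus strand, at 84.3% of the body as counted on that strand. No start is listed for APOBR, so the strand of this peak could not be set against that of the gene. If the gene runs on the plus strand, the peak is antisense to it and lies nearer its 5′ end. SPRED3, an inhibitor of Ras and MAP kinase signalling, had 9.43, 11.4 and 12.7 CPM in the NC inputs and 109, 101 and 92.5 CPM in IP. In KD it had 4.06, 6.69 and 8.7 CPM in input and 91.8, 99.1 and 119 CPM in IP. The groups did not overlap, and log2 IP over IN was 3.17 ± 0.27 (adjusted p 1.3e-09) in NC and 3.98 ± 0.29 (7.3e-11) in KD. This region, chr19:38389703-38390427, spans the SPRED3 start printed above.

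ARMCX4, a member of an X-linked family of armadillo-repeat proteins, had 13.6, 19 and 18.5 CPM in the NC inputs and 247, 233 and 188 CPM in IP. In KD it had 30.5, 14.3 and 21.7 CPM in input and 208, 176 and 189 CPM in IP. IP stood clear of input in both groups, by 3.71 ± 0.23 and 3.11 ± 0.22 on the log2 scale. The region, chrX:101493768-101494399, lies at 64.4% of the body, and 4 of the 6 tested ARMCX4 regions were higher in IP in each cell group. ZBTB47, a zinc finger protein with a BTB domain, had 70.2, 104 and 80.9 CPM in the NC inputs and 572, 496 and 446 CPM in IP, and 86.3, 111 and 105 against 746, 623 and 674 CPM in KD. The groups were well apart, with 2.58 ± 0.15 and 2.75 ± 0.15. TMUB1, a membrane protein of endoplasmic reticulum-associated degradation, spans its printed internal start at chr7:151082650-151083493 and had 48.2, 58.1 and 56.6 CPM in the NC inputs and 313, 359 and 298 CPM in IP. In KD it had 28.4, 28.7 and 12 against 179, 156 and 164 CPM, again without overlap, and its values were 2.58 ± 0.19 and 2.83 ± 0.21. EMC10, a subunit of a membrane protein insertase, had 2.60 ± 0.18 in NC and 3.36 ± 0.24 in KD, and POLR2H, a subunit shared by the RNA polymerases, had 2.92 ± 0.27 and 3.15 ± 0.29. PPP1R3E, which targets a phosphatase to glycogen, had 3.22 ± 0.28 and 2.46 ± 0.32.

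The other printed starts with a peak higher in IP had fewer reads. LMO4, a transcriptional cofactor with LIM domains, had 8.38, 10.1 and 20.8 CPM in the NC inputs and 52, 49.2 and 52.9 CPM in IP (1.97 ± 0.31), and 2.87 ± 0.30 in KD. LARP4B, an RNA-binding protein, had 2.14 ± 0.48 and 1.85 ± 0.46, the latter 2.47 without KD_IN replicate 3. RUNX2, the master regulator of bone-forming cells, had 7.33, 2.53 and 4.62 CPM in the NC inputs and 25.5, 16.8 and 13.8 CPM in IP. Its values were 1.91 ± 0.64 (adjusted p 0.017) in NC and 2.25 ± 0.66 (0.0071) in KD. The NC call was lost without NC_IN replicate 2 (adjusted p 0.051) or NC_IP replicate 1 (0.079), and both calls were lost among peaks in the upper 50% by the authors' fold. In KD the value was 1.63 without KD_IN replicate 1 and 3.96 without KD_IN replicate 2.

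The internal regions with the lowest IP over IN included both scarce and abundant ones. The lowest by the rule for named genes was in DMWD, with 9.43, 20.2 and 8.09 CPM in the NC inputs and 2.12, 3.11 and 1.26 CPM in IP, and 36.6, 16.3 and 10.9 against 3.2, 1.49 and 4.35 CPM in KD. IP and input did not overlap, by -2.47 ± 0.71 and -2.81 ± 0.64, but the NC call was lost without NC_IN replicate 2 (adjusted p 0.056) and the KD value was -2.21 without KD_IN replicate 1. EIF2AK3, the kinase PERK of the unfolded protein response, had -2.36 ± 0.57, or -3.10 without NC_IP replicate 2, and -2.08 ± 0.54. SSTR2, a somatostatin receptor, had -1.58 ± 0.50 and -2.22 ± 0.46, and PAQR4 had -1.26 ± 0.41 and -1.85 ± 0.45. Both lost the NC call when 1 NC library was left out, NC_IN replicate 2 or NC_IP replicate 1 for SSTR2 (adjusted p 0.053 and 0.08) and NC_IN replicate 2 or NC_IP replicate 2 for PAQR4 (0.074 and 0.057). RPS6, a protein of the small ribosomal subunit, had its region at chr9:19379456-19379727, with 4082, 3926 and 3860 CPM in the NC inputs and 1214, 1225 and 1479 CPM in IP. In KD it had 2704, 2587 and 2555 CPM in input and 759, 793 and 720 CPM in IP. Every IP library was below every input, 3.03-fold in NC (-1.60 ± 0.10, adjusted p 3.9e-12) and 3.45-fold in KD (-1.79 ± 0.10, 5.8e-13). The authors' deposited fold of this peak was nonetheless 2.26; the sources used here do not say what that fold is relative to. P4HB, a protein disulfide isomerase, had 3598, 2955 and 3500 CPM against 1428, 1290 and 1410 CPM in NC, and 4427, 4084 and 4874 against 1666, 1846 and 1854 CPM in KD. It was lower in every IP library, by -1.28 ± 0.10 and -1.32 ± 0.10. DNAJC7, a co-chaperone, had -1.48 ± 0.15 and -1.53 ± 0.14, and DYNC1H1, the heavy chain of the dynein motor, had -1.24 ± 0.21 and -1.28 ± 0.19.

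A listed start did not by itself go with high IP over IN. CARD8, an inflammasome sensor, had 55.5, 69.5 and 52 CPM in the NC inputs and 10.6, 19.9 and 22.7 CPM in IP at the start printed above, and 81.2, 107 and 67.4 against 26.1, 35.8 and 35.4 CPM in KD. IP was below input in all libraries, by -1.74 ± 0.30 and -1.40 ± 0.27. CD63, a tetraspanin of lysosomes and exosomes, had -1.15 ± 0.15 and -1.08 ± 0.14, and UBE2D3, a ubiquitin-conjugating enzyme, had -1.08 ± 0.14 and -1.37 ± 0.14. Mitochondrial mRNAs, which carry no cap, also had internal regions with many reads. ND1, a subunit of respiratory complex I, had 0.52 ± 0.18 (adjusted p 0.023) in NC, where IP and input libraries overlapped, and 0.82 ± 0.19 in KD, where they did not. CYTB, a subunit of complex III, had -0.10 ± 0.16 in NC and 0.52 ± 0.16 (adjusted p 0.013) in KD, and its libraries overlapped in NC only.

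**Figure D4:**
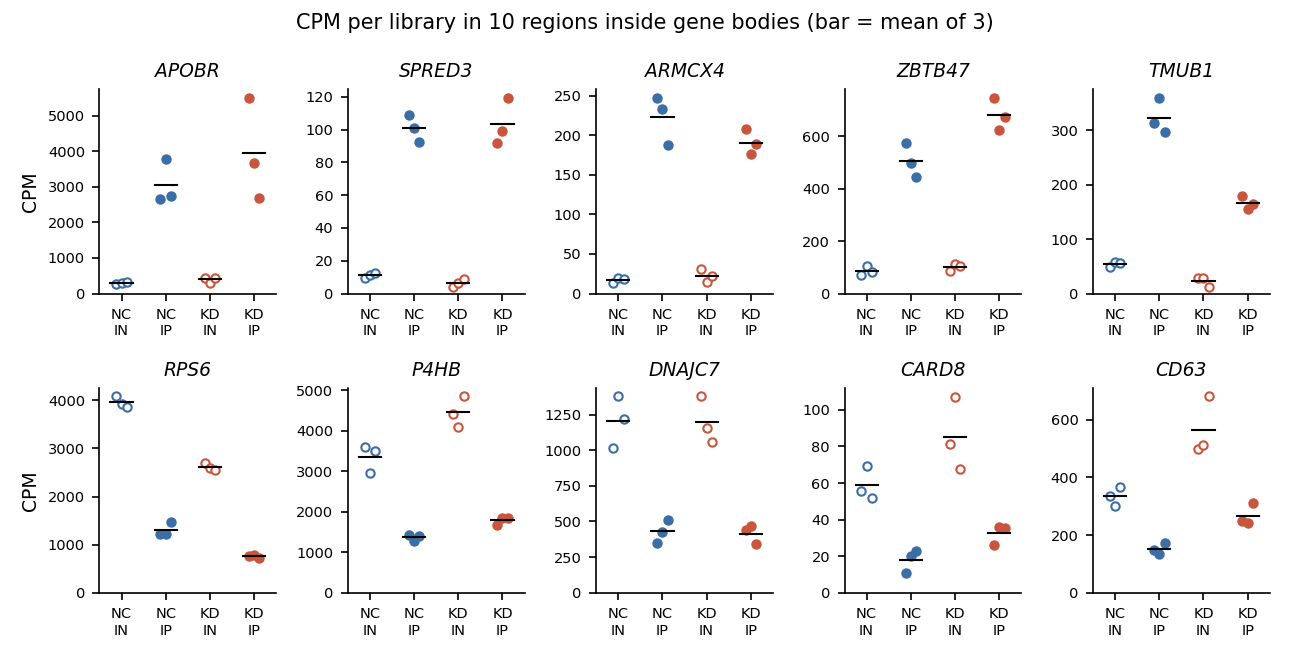
CPM per library in 10 internal regions, upper row higher and lower row lower in IP, with open points for IN, filled points for IP and a bar at the mean of 3 libraries; each axis starts at 0. IP and IN do not overlap in any of the 10 regions in NC or in KD, from APOBR at 10.3-fold higher to RPS6 at 3.03-fold lower in NC.

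By gene list, several lists had more internal regions lower than higher in IP. Of all tested internal regions 34.2% were lower in NC and 28.7% in KD, so lists near these shares do not stand apart from the rest. Among the groups of input level used above, these shares differed widely. At the highest input 515 of 740 internal regions were lower in NC and 449 in KD. At the lowest input 15 of 474 were lower in NC and 6 in KD. Lists were not compared with regions of like input, so a higher count alone does not set a list apart. The part of input level in the list counts was not tested. A gene can hold several regions, and a stretch called in both sets counts more than once. In NC the lower regions lay in 14 of 20 tested genes for chromatin, 5 of 9 for glycolysis and 4 of 7 for stress response. For translation factors they lay in 5 of 8, for splicing factors in 13 of 25 and for actin genes in 6 of 9. Among chromatin modifiers and remodelers 31 of 45 tested regions were lower and 1 higher in NC, and 28 lower and 2 higher in KD, with medians of -0.80 and -0.60 (28 lower and 3 higher in NC with library size alone). CHD4, the ATPase of the NuRD remodeler, was lower in all 8 of its tested regions in both groups (-0.93 to -0.67 in NC), which form at most 3 separate stretches, while KDM5C was the 1 higher region in NC. SMARCA4, the ATPase of the SWI/SNF remodeler, had -1.11 ± 0.12 in NC. All 8 tested regions of chaperone genes, in HSP90AB1, CANX and DNAJB6, were lower in both groups, such as HSP90AB1 at -0.96 ± 0.09 and -0.72 ± 0.08, though with library size alone 5 of the 8 passed in NC. Of 13 glycolysis regions 8 were lower in NC, 9 were lower in KD and 0 were higher (5 and 6 lower with library size alone), among them PKM (-1.06 ± 0.09), the pyruvate kinase of proliferating cells. Stress response genes had 11 of 16 lower in both groups, among them PPP1R15A, which reverses the integrated stress response, at -1.16 ± 0.10 in NC, and 1 higher in KD. Translation factors had 7 of 11 lower in both groups and 1 higher in NC.

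Splicing factors were more mixed, with 28 lower and 8 higher of 58 regions in NC and 29 and 12 in KD, and with library size alone 18 and 9 in NC. SRSF5 had -1.19 ± 0.12 and HNRNPD -1.04 ± 0.11, while HNRNPU, a scaffold protein of nuclear RNA, was lower in 6 of its 8 tested regions and higher in 2 (0.40 ± 0.11). SYNCRIP, an RNA-binding protein related to these, was lower in all 8 tested regions of 2 stretches (-1.21 to -0.66 in NC). Actin cytoskeleton genes had 9 of 16 lower and 0 higher in NC and 6 and 1 in KD, such as ACTB at -1.40 ± 0.09 and -1.05 ± 0.09, and microtubule and motor genes had 6 and 8 of 15 lower and 1 higher in each. Macrophage markers were divided: of 10 regions 3 were higher and 4 lower in NC, or 4 and 2 with library size alone. SPI1, the master factor of myeloid cells, had 0.83 ± 0.20, and CTSD, a lysosomal protease, 2.60 ± 0.63, whereas ITGB2, an integrin of leukocytes, had -1.23 ± 0.17 and APOE -1.05 ± 0.14. Inflammatory signalling genes had 1 higher and 3 lower of 15 regions in NC though their median was 0.37, and with library size alone 7 higher and 0 lower, so no direction can be given. Of 9 lysosome and lipid regions 1 was higher and 5 lower in NC, and of 8 pan-leukocyte regions 1 and 2, or 2 and 0 with library size alone. HEK293-associated genes had 2 higher and 15 lower of 24 regions in NC, or 3 and 10 with library size alone. Over all tested regions of the series 22.7% were higher and 24% lower in NC, and 23.5% and 21.4% in KD.

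The second comparison set KD against NC within the inputs and within the immunoprecipitates. In input 318 internal regions were higher in KD (17.7%, against 17.9% of all regions) and 479 were lower (26.7% against 21.9%), in 191 and 305 genes. In IP 405 were higher (22.6% against 20.9%) and 419 lower (23.3% against 20.1%). All 3 KD inputs were above all 3 NC inputs in 364 internal regions (20.3%, against 20.2% of all regions) and below them in 541 (30.1% against 24.6%). In IP this was so in 552 (30.8% against 29.5%) and 561 (31.3% against 28.3%). In both comparisons together 602 regions passed in the same direction, 253 higher and 349 lower, and 3 passed in opposite directions. In input 163 were lower by at least 4-fold and 42 higher by as much. Shares over all tested regions are not given for these 4-fold counts or for the regions passing in both comparisons. They therefore do not set internal regions apart from the rest. The summed marker levels given above moved with the comparison of KD with NC. The HEK293-associated and epithelial sums were lower and the leukocyte sums higher in the KD inputs, and their part in it was not tested. In these bulk libraries fewer cells of a type and less RNA per cell cannot be told apart.

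Among the regions lower in KD, 30 had no read in the KD inputs, and the share over all tested regions is not given. Filamin A (FLNA), which crosslinks actin, had 217 ± 37.6 CPM (SD, n = 3) in the NC inputs with 561 reads, and 0 reads in KD. It was at least 211-fold lower, taking 3 counts in the KD group as the floor. The homeobox factor HOXC8 was lower by at least 158-fold, MAP9 at least 117-fold, and LIN28B, an inhibitor of let-7 maturation, at least 71.9-fold. MYH10, a nonmuscle myosin, had 166, 203 and 200 CPM in the NC inputs and 7.11, 0 and 3.26 CPM in KD. It was low in all 3 KD libraries, by -5.76 ± 0.39 (adjusted p 1.5e-11), or -6.80 without KD_IN replicate 1 and -5.12 without KD_IN replicate 2. CALD1, the actin-binding protein caldesmon, had 108, 152 and 106 CPM against 3.05, 2.87 and 5.44 CPM (-4.99 ± 0.31). In IP the neurofilament gene NEFM had 4450, 4326 and 4423 CPM in NC and 4.8, 8.46 and 4.35 CPM in KD, a 723-fold difference (-9.50 ± 0.17, adjusted p 2.4e-23), and IRS4, an adaptor of insulin signalling, was at least 124-fold lower. The HEK293-associated list as a whole had 20 of 24 internal regions lower and 2 higher in the KD inputs, and 16 lower and 2 higher in IP. In input the lower regions lay in 12 of its 14 tested genes and the higher ones in 1.

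Among the regions higher in KD, SLC8A1, a sodium-calcium exchanger, had 3.14, 6.32 and 4.62 CPM in the NC inputs and 27.4, 26.8 and 51.1 CPM in KD. Each KD library was above each NC library, 7.43-fold (2.89 ± 0.57, adjusted p 0.00023). CD93, a surface receptor of myeloid and endothelial cells, had 19.9, 12.6 and 16.2 CPM against 47.7, 63.1 and 77.2 CPM, without overlap, 3.81-fold (1.93 ± 0.33, 4.6e-05). SPHK1, which makes sphingosine 1-phosphate, had no read in the NC inputs and 19.5 ± 12.1 CPM in KD, at least 17.4-fold, and SOCS3, a feedback inhibitor of cytokine signalling, was at least 11.2-fold higher. In IP, MAFF, a small Maf transcription factor, had 5.3, 4.36 and 5.03 CPM in NC and 35.2, 31.4 and 34.1 CPM in KD. The libraries were far apart, 6.72-fold (2.75 ± 0.41, adjusted p 5.4e-06). NREP had 14.9, 28 and 23.3 CPM against 99.8, 175 and 105 CPM (2.53 ± 0.23, 3.1e-09).

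The gene groups went both ways in KD input. Of all tested internal regions 17.7% were higher and 26.7% lower in KD input, and of all regions 17.9% and 21.9%. Lists near these shares do not stand apart from the rest. In IP the internal shares were 22.6% and 23.3%. Inflammatory signalling had 10 of 15 regions higher and none lower, macrophage markers 6 of 10 and none, lysosome and lipid genes 6 of 9 and none, and pan-leukocyte markers 4 of 8 and none. In the same order, these higher regions lay in 5 of 7, 5 of 8, 5 of 8 and 4 of 5 tested genes. MMP9, a secreted protease of macrophages, was 1.20 ± 0.18 higher, ITGB2 1.06 ± 0.16, APOE 1.39 ± 0.13 and HCLS1, a leukocyte actin regulator, 1.11 ± 0.13. Stress response genes had 11 of 16 higher, in 5 of 7 genes, and 2 lower. ATF4, the transcription factor of the integrated stress response, was one of the lower (-0.67 ± 0.11). Splicing factors had none higher and 28 of 58 lower, in 14 genes, with HNRNPA1 at -1.39 ± 0.09 and HNRNPH3 at -0.98 ± 0.13, and in IP 2 higher and 25 lower. Chromatin genes had 15 of 45 lower, in 7 of 20 genes, and 2 higher. Of the m7G methyltransferases and readers, NUDT16, a decapping enzyme, was the 1 gene with tested internal regions, and all 5 were lower in the KD inputs (3 with library size alone). Of the m6A machinery both tested regions, in ZC3H13, were lower, as were both epithelial marker regions, while the 1 fibroblast marker region was not called. Actin genes had 8 higher and 4 lower of 16, microtubule and motor genes 1 and 9 of 15, chaperones 5 and 0 of 8, glycolysis 3 and 5 of 13, and translation factors 2 and 4 of 11. CACNG8, a regulator of AMPA receptors, was lower in all 5 tested regions (-5.55 to -3.94), while SYNCRIP was higher in all 8 (0.34 to 0.40).

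**Figure D5:**
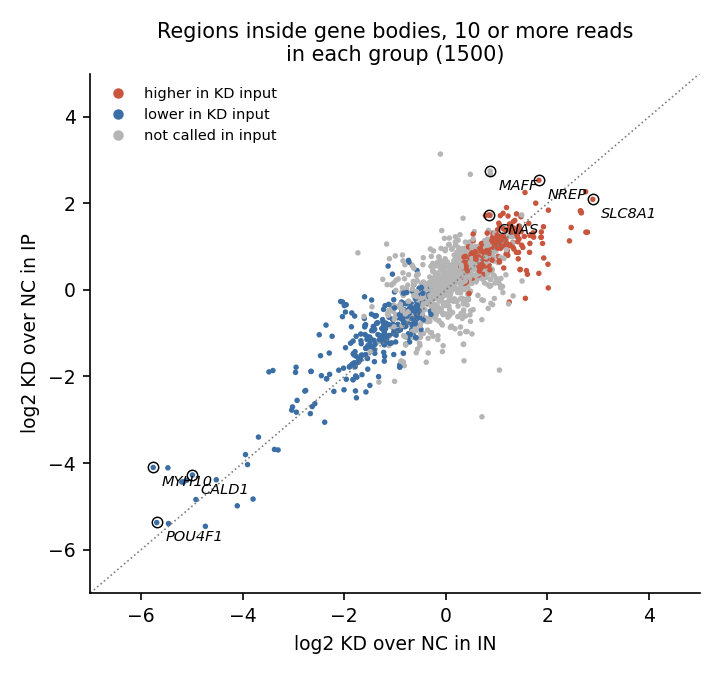
Log2 KD over NC in IN (horizontal) against IP (vertical) for the 1500 tested internal regions with at least 10 reads in each group; the dotted line marks equal values, colours mark edgeR calls in input and circles mark named regions. Most points lie near the line, from MYH10 and CALD1 at the lower left to SLC8A1 at the upper right, and GNAS lies above it.

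The third comparison, the change in enrichment, asked whether IP over IN itself differed between KD and NC. No internal region passed with edgeR in either direction (0% of all regions in both directions), 215 had an unadjusted p under 0.05 (11.9% of all regions did), and the smallest adjusted p was 0.116. DESeq2 called 7, of which 4 were higher and 3 lower (0.411% of all regions). The median change was 0.12 for internal regions and 0.08 for all regions. Among regions with at least 10 reads in each of the 4 groups the smallest p belonged to GNAS, the gene of the stimulatory G protein alpha subunit, which has several promoters, at chr20:58889884-58890305. Its region had 316, 200 and 227 CPM in the NC inputs and 475, 348 and 364 CPM in IP, and 413, 410 and 515 against 1444, 1353 and 1150 CPM in KD. IP was above input in all libraries, by 0.67 ± 0.15 in NC and 1.56 ± 0.15 in KD, and the change was 0.89 ± 0.21 (edgeR adjusted p 0.13). Over the alternatives that keep all libraries its adjusted p ran from 0.0043 to 0.2, and it was 0.006 with no filter on low counts. TRAPPC2L, of a vesicle tethering complex, had -0.08 in NC and -2.99 in KD, a change of -2.91 ± 0.72 (adjusted p 0.13 with edgeR and 0.029 with DESeq2, and 0.028 to 0.16 over the same alternatives). ENO1, the glycolytic enolase, had -0.93 and -1.77, a change of -0.84 ± 0.21 (0.13, and 0.032 with DESeq2, the lowest of these alternatives, to 0.12).

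The authors' deposited table gives its own test of this change, with an adjusted p under 0.05 in 29 internal peaks (0.829%, against 0.783% of all peaks). Of these 17 were higher in KD (0.351% of all peaks were) and 12 lower (0.432%), and 11 had no read in 1 of the input groups. The 20 that were also tested here had the same sign in both. In the authors' deposited table ANKRD13B had a log2 change of 5.00, GNAS 0.76, ENO1 -0.96 and TRAPPC2L -3.06.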

How the data were processed

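Per the labels, 12 m7G immunoprecipitation libraries were made from THP-1 cells. Per the submitters' processing notes, fastp 0.23.4 was used and the build was GRCh38; which aligner, peak caller and counter served is not given in the sources used here. The authors deposited raw read counts per peak and library, a fold enrichment ratio per peak (the deposited score equals it), p-values and a log2 change in enrichment. Peaks were assigned to RefSeq genes (GRCh38.p14), which gave no exons, so coding sequence and untranslated regions were not separated. The main test was that of edgeR 4.0.16 (R 4.3.3) on the counts of all peaks: filterByExpr (minimum count 10, total 15), TMM, 4 group means, quasi-likelihood F test, two-sided, Benjamini-Hochberg over 5113 regions, threshold 0.05. Adjusted p-values are from this test unless DESeq2 1.42.0 is named. CPM used TMM-scaled totals. Intervals and floors (3 counts) cover counting error only. On simulated data the test for IP over IN in NC recovered 57% of 2-fold and 89% of 4-fold changes, and that for the change in enrichment 40% and 67%, each in 5113 regions.

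The members and the 18 gene lists were chosen with earlier results of these data known. Named genes were the 10 highest and 10 lowest values per comparison among called regions whose libraries do not overlap and that have at least 10 reads in each group compared, for IP over IN in both cell groups together. To these were added up to 4 per list with the smallest p, the 6 genes with most peaks, the 3 regions with most input reads in NC and in KD, and for the change in enrichment the 8 smallest p. Not every gene so chosen is printed. The printed starts, the genes with opposite calls at 2 positions, regions with 0 reads in a group, opposite-strand regions and microRNA hairpins were chosen after their values were seen.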

Additional observations from a re-analysis of the deposited data

How the results depend on the processing

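Between 20% and 80% of the body the counts higher and lower were 187 and 401 for IP over IN in NC, 200 and 342 in KD, 190 and 302 for KD over NC in input and 253 and 264 in IP. As a share of tested regions these were 16.2% and 34.7% in NC and 17.3% and 29.6% in KD, close to 16.8%, 34.2%, 17.9% and 28.7%. With 1 region per stretch, of 1264 regions 182 were higher and 443 lower in NC, and 190 and 361 in KD. The gap of their median to that of all regions was then -0.44 in NC and -0.34 in KD, against -0.35 and -0.25. Among peaks whose deposited fold was in the upper 50% the counts were 84 and 103, 74 and 79, 90 and 119, and 53 and 85, and 8 and 6 for the change in enrichment. That change gave 4 and 3 calls with DESeq2, 12 and 9 with no filter on low counts, and 0 or 1 without any 1 replicate, the 1 call coming without KD_IN replicate 2. Leaving out 1 replicate gave 233 to 380 higher and 525 to 607 lower for IP over IN in NC, and 261 to 332 and 454 to 573 in KD. It gave 308 to 355 and 438 to 485 for KD over NC in input, and 322 to 387 and 372 to 473 in IP. With DESeq2 347 internal regions were higher and 467 lower in KD over NC in IP.

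Replicate numbers are shared between groups, but nothing in the labels says that they pair libraries. Between IN and IP, deviations from the group mean correlated at 0.0677, 0.0236 and -0.019 for same-numbered NC libraries. In KD they did so at 0.0514, 0.0625 and 0.0483. Different-numbered libraries gave -0.0644 to 0.0453 in NC and -0.0528 to -0.000438 in KD. Same-numbered KD libraries were thus the higher ones, but all values were small, and pairing is not established. With a replicate block the counts were 271 and 601, 307 and 514, 306 and 472, and 388 and 408, and the change in enrichment had 5 higher calls, among them GNAS (adjusted p 0.0043), and 0 lower. The shared share was 27% where 50% of both peaks had to overlap and 17.2% in the upper 50% of each set. Read shares were 38.6% in input and 32.5% in IP for NC, and 39.1% and 32.6% for KD, between 20% and 80% of the body. With 1 peak per stretch they were 53.3% and 47.5%, and 52.8% and 46.5%. At inside starts the median IP over IN was 0.82 in NC and 0.91 in KD for peaks within 500 bases, and 0.75 and 0.82 with 1 region per stretch; these settings and library size alone for start classes were chosen after seeing the data. Of 75 values of named regions none was called in the opposite direction in any setting that gave one. A change of sign in a value that was not called is not covered by this count. Low counts limit single regions: 212 tested internal regions had under 10 reads in the KD inputs and 139 in the NC inputs.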

Other observations

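The 56 internal peaks on the strand opposite to their gene lay in 35 genes, and 14 of them overlapped a peak on the strand of the gene. Of the 31 tested, 4 were higher and 8 lower in IP over IN in NC and 2 and 9 in KD, with medians of 0.06 and -0.18. Of all tested internal regions 16.8% were higher and 34.2% lower in NC, and 17.9% and 28.7% in KD. These few regions are not set apart from the rest by such counts. COX20, an assembly factor of cytochrome oxidase, had such a peak at chr1:244840757-244841027. That region was lower in KD than in NC, by -1.54 ± 0.14 in input and -1.58 ± 0.14 in IP, while the region at the 5′ end of COX20 was higher, by 1.07 ± 0.22 and 0.84 ± 0.20.

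2 internal peaks overlapped a microRNA hairpin. The peak in SERF2 at chr15:43792954-43793686 overlapped MIR1282 on the opposite strand and held 9646 reads in the NC inputs and 15046 in the KD inputs. The peak in ANKRD54 at chr22:37844228-37844319 overlapped MIR658 on the same strand, held 9 reads in the NC inputs and 6 in the NC immunoprecipitates, and was not tested.

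Just inside the limits of 10% and 90% of the body, 46 peaks lay between 10% and 11% and 114 between 89% and 90%, with medians in NC of 0.25 (26 tested) and 0.13 (39 tested). Just outside, 56 lay between 9% and 10% and 104 between 90% and 91%, with medians of 0.07 (38 tested) and -0.36 (61 tested).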
